A study of Mus musculus with 12 samples.

Results

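The nuclear-encoded genes of oxidative phosphorylation (OXPHOS) were followed in epiblast-like cells (EpiLCs) with and without the histone demethylase KDM5C. Members were taken by symbol from the deposited gene tables: all symbols that begin with Nduf, Uqcr, Atp5 or Cox4 to Cox8, and the 4 genes *Sdha*, *Sdhb*, *Sdhc* and *Sdhd*. This rule found 92 of 22911 genes. It placed 43 genes in complex I, 4 in complex II, 8 in complex III, 20 in complex IV and 17 in complex V. *Ndufa4* and its paralogue *Ndufa4l2* were counted with complex IV, because NDUFA4 is a subunit of that complex in spite of its name. All 92 genes were placed on mm9, on 18 autosomes and, for *Ndufa1*, *Ndufb11* and *Cox7b*, on the X chromosome. The 13 subunits encoded by mitochondrial DNA were not analysed here.

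EpiLCs are a culture model of the early post-implantation epiblast and were obtained from mouse embryonic stem cells (ESCs) grown for 48 h with FGF2 and activin A. RNA-Seq was performed on 12 libraries, 3 for each of 4 genotypes. The study asked whether KDM5C activates *Xist*, the RNA needed for stable X-inactivation. From these libraries its paper reports that reads of the deleted *Kdm5c* exons were missing. Female controls (fWT) were *Kdm5c* fl/fl, female knockouts (fKO) were *Kdm5c* Δ/Δ, male controls (mWT) were *Kdm5c* flY and male knockouts (mKO) were *Kdm5c* ΔY. The controls carry the floxed allele, and the Δ allele lacks the exons of the catalytic domain while the rest of the gene can still be transcribed. The labels give the strain C57BL/6J for every sample, whereas the methods of the study place the floxed allele on a mixed background. Each library comes from 1 ESC line, so a genotype is represented by 3 lines. ESC lines were derived on feeder cells. Before conversion they were passaged on gelatin with GSK3 and MEK inhibitors and LIF, and conversion took place on fibronectin.

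OXPHOS couples the transfer of electrons along complexes I to IV of the inner mitochondrial membrane to the pumping of protons, and complex V (ATP synthase) uses the returning protons to make ATP. Complex I takes electrons from NADH, complex II from succinate in the citric acid cycle, complex III passes them from ubiquinol to cytochrome c, and complex IV passes them to oxygen. Pluripotent cells that leave the naive state for the primed state are known to shift from mixed respiration and glycolysis towards glycolysis.

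Promoters of the members were compared with all promoters of RefSeq (GRCm38.p6), each read from 250 bases before to 50 bases after the gene start. Entries were found for 76 of the 92 members. Their median number of CpG dinucleotides was 20, against 7 over all 32851 promoters. Short motifs of factors known to act on respiratory genes were searched on both strands: GCGCATGC (nuclear respiratory factor 1, NRF1), CCGGAAG (the ETS family, which includes GABPA) and AAGATGGC (YY1). The ETS and YY1 letters can overlap at AAG, and an NRF1 site can match on both strands at once, as in *Atp5k*. The NRF1 letters were in 12 of 76 member promoters (15.8%) and in 2.71% of all promoters, the ETS letters in 16 (21.1%) and 8.86%, and the YY1 letters in 10 (13.2%) and 2.75%. By the female comparison, the NRF1 letters were in 2 of 13 promoters of members that were higher in knockouts, 3 of 19 that were lower and 7 of 43 that did not pass, and the ETS letters in 2, 2 and 12. The promoters printed here were chosen after the values had been seen. They show *Ndufa6*, which fell in both sexes, *Atp5k*, which fell in males, and *Ndufaf4*, which rose in females, each with NRF1 letters, beside *Cox6b2* and *Cox7b2*, which fell in both sexes and held none of the 3 motifs and 10 CpG each. Capitals mark the matched letters, and each sequence runs 5′ to 3′ on the strand of the gene.
*Ndufa6* (chr15:82354242-82354541, minus strand): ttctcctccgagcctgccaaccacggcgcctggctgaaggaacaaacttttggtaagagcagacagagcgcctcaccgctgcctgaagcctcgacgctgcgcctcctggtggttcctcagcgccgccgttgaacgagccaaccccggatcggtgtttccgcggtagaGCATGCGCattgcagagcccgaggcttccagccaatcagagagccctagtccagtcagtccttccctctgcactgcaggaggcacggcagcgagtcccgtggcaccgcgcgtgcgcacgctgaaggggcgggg
*Atp5k* (chr5:108434350-108434649, minus strand): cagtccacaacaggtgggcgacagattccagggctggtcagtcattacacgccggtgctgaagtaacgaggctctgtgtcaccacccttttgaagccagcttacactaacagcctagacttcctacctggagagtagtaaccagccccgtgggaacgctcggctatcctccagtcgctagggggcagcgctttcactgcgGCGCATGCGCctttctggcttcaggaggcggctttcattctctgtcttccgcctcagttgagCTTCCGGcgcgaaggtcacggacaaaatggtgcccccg
*Ndufaf4* (chr4:24897833-24898132, plus strand): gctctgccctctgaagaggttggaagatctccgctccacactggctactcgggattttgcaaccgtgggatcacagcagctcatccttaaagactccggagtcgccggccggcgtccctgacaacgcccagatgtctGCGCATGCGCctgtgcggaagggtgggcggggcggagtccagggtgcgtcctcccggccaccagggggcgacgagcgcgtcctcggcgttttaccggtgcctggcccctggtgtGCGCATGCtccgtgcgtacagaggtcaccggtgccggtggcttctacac
*Cox6b2* (chr7:4753045-4753344, minus strand): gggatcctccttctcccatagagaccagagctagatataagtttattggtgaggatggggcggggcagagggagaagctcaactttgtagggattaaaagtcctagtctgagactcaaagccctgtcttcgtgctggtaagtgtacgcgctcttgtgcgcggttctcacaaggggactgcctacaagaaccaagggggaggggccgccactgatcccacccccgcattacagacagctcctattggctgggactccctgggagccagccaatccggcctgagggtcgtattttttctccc
*Cox7b2* (chr5:71548156-71548455, minus strand): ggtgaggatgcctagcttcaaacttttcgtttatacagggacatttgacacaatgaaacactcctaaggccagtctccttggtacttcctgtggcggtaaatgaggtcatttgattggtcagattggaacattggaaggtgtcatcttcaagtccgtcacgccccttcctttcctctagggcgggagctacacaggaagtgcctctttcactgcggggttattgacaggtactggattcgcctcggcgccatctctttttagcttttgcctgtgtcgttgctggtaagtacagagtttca

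The deposited tables list the mean normalized count of each genotype, in which the reads of each library are scaled by a size factor and then averaged over 3 libraries. Reads of single libraries were worked out from these means, and letters A, B and C name them within each genotype by falling size factor. Between 5871950 and 11853303 reads were recovered per library. *Kdm5c* itself, counted over the whole gene, was at 2315 to 2429 normalized counts in fWT, 1406 to 1505 in fKO, 2110 to 2371 in mWT and 1897 to 1976 in mKO, with log2 changes of -0.70 ± 0.05 (adjusted p = 1.1e-08 by limma) in females and -0.20 ± 0.10 (adjusted p = 0.25) in males. Counts over the whole gene do not measure the deleted exons. Male libraries were less alike than female ones. Over 9759 genes with a mean of at least 100, Pearson's r was at least 0.993 between the 3 libraries of fWT and of fKO, whereas mWT B reached 0.967 at most with mWT A or C, and mKO A reached 0.936 at most with mKO B or C. The other pairs of males, mWT A with C and mKO B with C, reached 0.993. On the other hand, mWT A and C had reads on 3190 and 2919 of 4982 genes that were nearly silent in the other genotypes, against 398 in mWT B, so neither side of the mWT split can be taken as the reference. Male counts, and the values of several named genes whose call changed, are therefore also given without mWT B and mKO A. These 2 libraries were chosen by the same correlations, so the spread left within each male genotype is smaller by that choice. Calls of that fit are not separate support, and no fit used mWT B alone as the control.

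The epiblast label was checked with markers. *Pou5f1* was at 2750 to 4402 normalized counts over the 12 libraries, *Otx2* at 368 to 1662 and *Fgf5* at 124 to 404. Of 8 epiblast markers, 4 were higher and 3 lower in fKO, and 3 were lower in mKO, namely *Otx2* (log2 change -1.72), *Pou3f1* (-1.53) and *Fgf5* (-1.05). Markers of other cell types moved with genotype as well. The summed level of 10 endoderm markers was 464 to 527 in fWT and 4187 to 4284 in fKO, with 10 of 10 higher in fKO. In males it was 2028 to 2861 in mWT and 590 to 2990 in mKO. Of the 10, 2 were lower in mKO and 0 higher, namely *Sox17* (log2 change -2.14) and *Pdgfra* (-1.81). The summed level of 9 naive pluripotency markers was 1345 to 1408 in fWT and 3846 to 4105 in fKO, with 8 of 9 higher, and it was 1861 to 3272 in mWT and 4706 to 8292 in mKO, with 5 of 9 higher. Fibroblast markers summed to 2292 to 2347 in fWT, 791 to 846 in fKO, 605 to 859 in mWT and 4241 to 4697 in mKO. Of these 9 markers, *Col1a1*, *Col1a2* and *Postn* were lower in fKO, *Col1a1*, *Col1a2*, *Col3a1* and *Postn* were higher in mKO, and *Lum* and *Dcn* stayed at or below 3.99 and 8.78. The part of these shifts in the results on OXPHOS genes was not tested, and fewer cells of a type cannot be told apart from less RNA per cell.

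**Figure D1:**
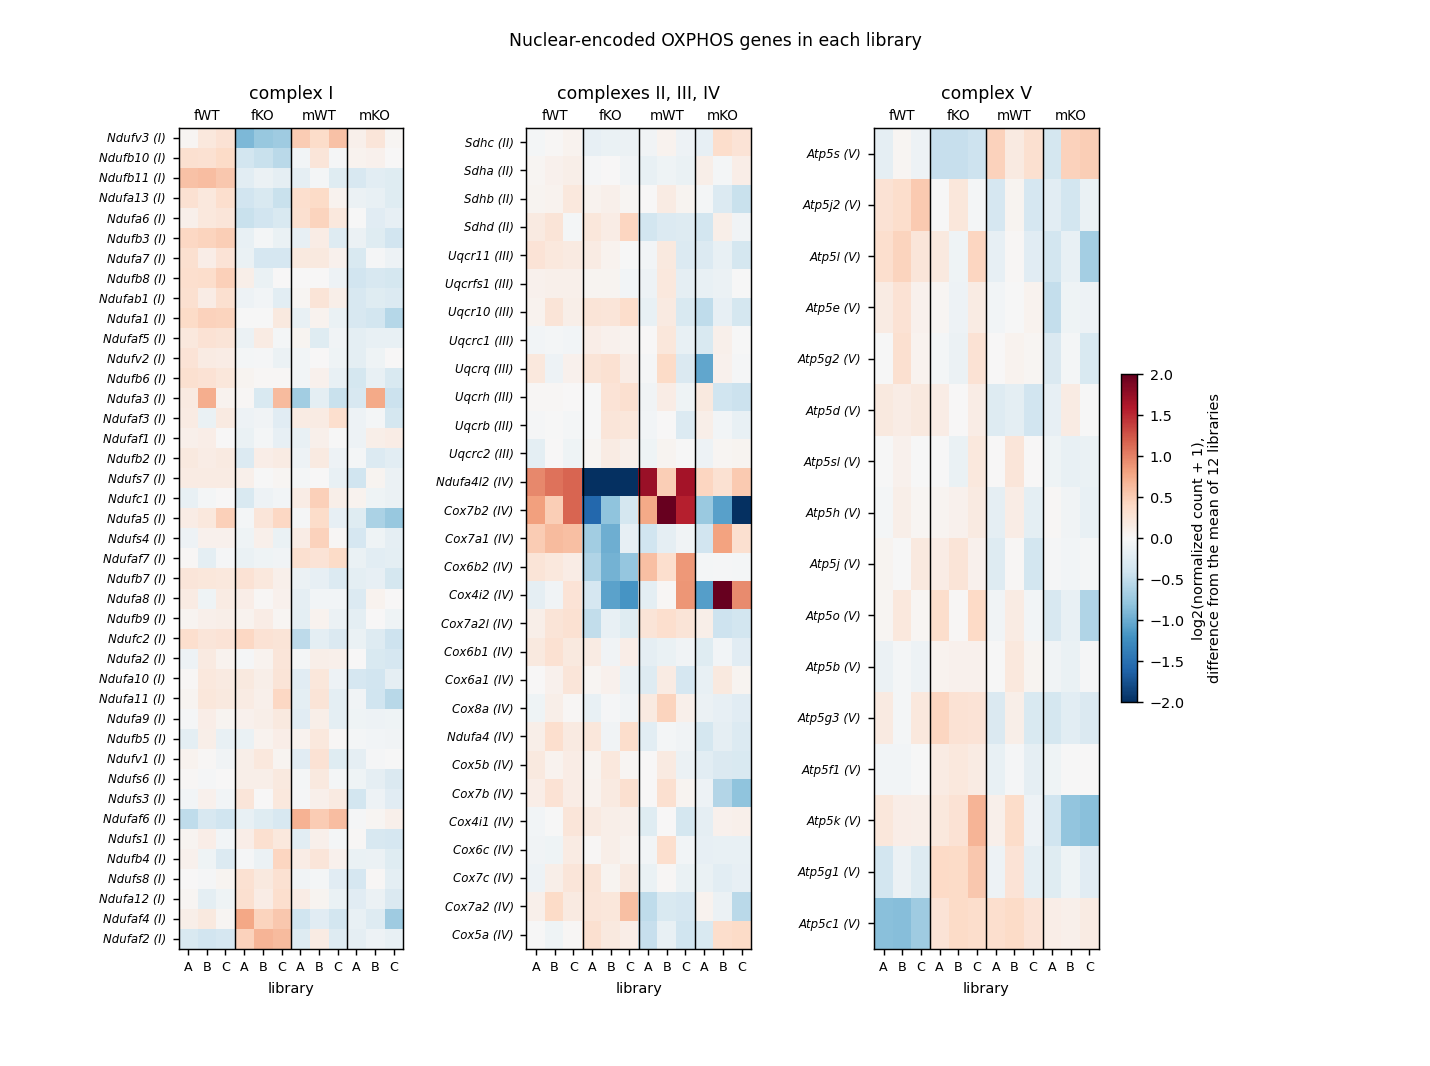
Each cell is the log2(normalized count + 1) of a member in a library, minus the mean over the 12 libraries, for 86 members with a mean of at least 10 and reads worked out in all libraries (columns: libraries A, B and C of each genotype, colours cut at ±2). Most rows are pale, and strong colours are found at several complex IV paralogues and isoforms, at Uqcrq in mKO A and at Atp5c1 in fWT.

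Most members were well expressed. The mean over the 4 genotypes was at least 10 normalized counts for 88 of 92 members, and the median member was at 823. To compare genes, levels were divided by the median length of their protein-coding transcripts. On this scale of normalized counts per kb, the median of members with a mean of at least 10 was 713 for complex I, 949 for complex II, 2090 for complex III, 1376 for complex IV and 1998 for complex V. The highest levels per kb were those of *Cox4i1*, the common isoform of complex IV subunit 4, at 6704, and of *Atp5b*, the catalytic beta subunit of ATP synthase, at 6600. *Cox7c* followed at 6000, and *Atp5a1*, the alpha subunit, stood at 4784.

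Within the other complexes, the 2 subunits with the most reads are given as mean normalized counts over the 4 genotypes. In complex I these were *Ndufa13* and *Ndufab1* (the mitochondrial acyl carrier protein), at 1799 and 1403. *Sdha*, the flavoprotein that oxidizes succinate, and *Sdhb*, the iron-sulfur subunit, led complex II at 2777 and 1073. In complex III, *Uqcrq* and the core protein *Uqcrc1* had 2221 and 1838. The other 4 members were at or near 0. *Ndufs5*, an accessory subunit of complex I, ranged from 0 to 4.39 normalized counts and had no read in any of the 6 male libraries, where a count of 0 allows up to 3 reads per library. Of the 50-base windows within its exons, 60% occur once in mm9. *Cox6a2* and *Cox8b*, isoforms of heart and skeletal muscle, ranged up to 2.03 and 1.44, and *Cox8c*, a testis isoform, from 0 to 11.1.

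Some members share sequence with copies elsewhere in the genome, and 10 of 92 had under 80% of their exonic 50-base windows unique in mm9. For *Atp5g2*, which encodes the membrane-embedded c subunit, none of 421 windows was unique, yet its mean was 1927 normalized counts. The share was 13.5% for *Atp5l*, 37.8% for *Cox5b* and 42.5% for *Cox7a2l*. Only uniquely mapped reads were kept by the authors, and the windows counted here leave out reads across splice junctions, so values of these genes are uncertain. The library kit marks strand, but whether counting used it is not stated. Exons of *Ndufb11* overlap those of *Rbm10* over 12.9% of their length, and those of *Ndufa13* overlap *Tssk6* over 30.2%.

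The first comparison asked how OXPHOS genes differ between female knockout and control EpiLCs. Of 91 members tested with limma, 16 were higher and 22 lower in fKO (41.8%), and 53 did not pass an adjusted p of 0.05. Over all 18405 genes tested, 53.4% passed, 27.1% higher and 26.3% lower. Scaling to library totals turned the members' split to 8 higher and 33 lower, and centring on expressed genes to 12 and 26. The median log2 change of the members was -0.04, against 0.00 over all genes. *Cox8b* had too few reads to be tested. The 38 calls covered 36 of the 84 members with a mean of at least 100, where 68.4% of all genes of that level passed.

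Complex I, with 43 of the 92 members, accounted for most of the lower calls. All 43 genes were tested, and 46.5% passed, against 53.4% of all genes. Of the 43, 14 were lower (32.6%) and 6 higher (14%) in fKO, beside 26.3% and 27.1% of all genes. By role, 11 of 29 accessory subunits were lower and 2 higher, whereas the 7 core subunits, which carry the flavin and iron-sulfur clusters, split into 2 lower and 2 higher. Of the 7 assembly factors, 1 was lower and 2 were higher. Without each library in turn, between 12 and 13 complex I genes were lower and between 4 and 6 higher.

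The accessory subunit *Ndufv3*, which sits beside the NADH-oxidizing flavoprotein, was at 845, 954 and 1004 normalized counts in fWT A, B and C and at 442, 482 and 498 in fKO. All fKO libraries were below all fWT libraries. Its log2 change was -0.98 ± 0.07 (SE, adjusted p = 1.1e-08 by limma). *Ndufb10*, another accessory subunit of the membrane arm, was at 639, 637 and 671 in fWT and at 400, 376 and 354 in fKO, again without overlap. It fell by 0.79 ± 0.07 on the log2 scale (adjusted p = 5.8e-08).

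*Ndufb11*, an X-linked accessory subunit, stood out in the controls. It was at 794, 807 and 764 normalized counts in fWT and at 455, 482 and 466 in fKO, a log2 change of -0.75 ± 0.06 (adjusted p = 2.7e-08). The 6 male libraries lay between 420 and 512, close to the level of fKO, so that fWT was the genotype that stood apart. *Ndufa1*, the X-linked accessory subunit of the proximal membrane arm, was at 894 to 937 in fWT and 678 to 783 in fKO (log2 change -0.37 ± 0.07, adjusted p = 0.00015).

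Further accessory subunits that fell in fKO were *Ndufa13*, by 0.66 ± 0.06, *Ndufa6*, by 0.57 ± 0.06, *Ndufb3*, by 0.56 ± 0.07, and *Ndufa7*, by 0.50 ± 0.07 on the log2 scale. The largest rise in complex I was that of *Ndufaf2*, an assembly factor that binds late intermediates of the complex. Its normalized counts were 356, 336 and 347 in fWT and 605, 705 and 681 in fKO, with no overlap (log2 change 0.93 ± 0.07, adjusted p = 1.4e-08). *Ndufaf4*, another assembly factor, was at 253 to 282 in fWT and 338 to 425 in fKO (log2 change 0.47 ± 0.09, adjusted p = 0.00028). *Ndufa12*, the accessory subunit that is the structural counterpart of NDUFAF2, was at 504 to 594 in fWT and 640 to 729 in fKO (log2 change 0.35 ± 0.07, adjusted p = 0.00073).

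In complexes II and III the changes in females were small. Among the succinate dehydrogenase genes, *Sdhc*, a membrane anchor, was lower by 0.15 ± 0.06 on the log2 scale (adjusted p = 0.031), and *Sdha*, *Sdhb* and *Sdhd* had log2 changes of -0.11, -0.04 and 0.14 that did not pass. Of 8 complex III genes, *Uqcrc1*, *Uqcrc2*, *Uqcrb* and *Uqcrh* were higher, by 0.14 to 0.19, and *Uqcr11* was lower, by 0.14. *Uqcrq*, at 2015 to 2509 normalized counts in fWT and 2395 to 2672 in fKO, had a log2 change of 0.17 ± 0.07 (adjusted p = 0.051). None of the calls in complexes II and III was kept in all 6 fits that left out 1 library.

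In complex IV, the common subunits and the isoforms differed. Of the 11 common subunits only *Cox5a* passed, with a log2 change of 0.24 ± 0.06 (adjusted p = 0.0035). *Cox4i1* was at 4346, 4514 and 5363 normalized counts in fWT and at 5109, 4901 and 4830 in fKO, and *Cox7c* was at 2709 to 3437 and at 3021 to 3450, both with overlap. By contrast, 5 of the 8 isoforms and paralogues tested passed (62.5%), all of them lower in fKO. Over all genes 53.4% passed, and 26.3% were lower. The median log2 change of these 8 was -0.92, against 0.00 over all genes.

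*Ndufa4l2*, a hypoxia-inducible paralogue of *Ndufa4*, had the largest change of all members in females. It was at 245, 267 and 283 normalized counts in fWT and at 14.9, 16.8 and 21.2 in fKO, a log2 change of -3.85 ± 0.16 (adjusted p = 9.4e-12). Its gene lies at chr10:126951995-126954208 on mm9, and 100% of its exonic windows are unique. *Cox7a1*, the isoform of heart and skeletal muscle, was at 106, 115 and 112 in fWT and at 45.5, 37.0 and 65.7 in fKO (log2 change -1.19 ± 0.18, adjusted p = 3.6e-05). *Cox7a2l*, which takes part in joining complexes III and IV into supercomplexes, was at 1442 to 1641 in fWT and 945 to 1199 in fKO (log2 change -0.52 ± 0.08, adjusted p = 2.8e-05).

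The testis isoforms *Cox6b2* and *Cox7b2* were also lower. *Cox6b2* was at 240, 232 and 222 normalized counts in fWT and at 132, 104 and 117 in fKO, a log2 change of -0.97 ± 0.11 (adjusted p = 8.0e-07). *Cox7b2* was at 33.2, 26.4 and 42.2 in fWT and at 5.49, 10.1 and 14.1 in fKO, a log2 change of -1.74 ± 0.33 (adjusted p = 0.00028). The groups did not overlap for either gene.

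Of the 17 complex V genes, 5 were higher (29.4%) and 1 was lower (5.88%) in fKO, beside 27.1% and 26.3% of all genes. In all, 35.3% of them passed, against 53.4% of all genes. With scaling to library totals 3 were higher and 6 lower. *Atp5c1*, the gamma subunit that forms the central rotor stalk, was at 1329, 1318 and 1454 normalized counts in fWT and at 2860, 3088 and 3029 in fKO (log2 change 1.13 ± 0.06, adjusted p = 8.3e-11). The 6 male libraries lay between 2545 and 3114. The female controls were therefore low, and the knockouts were at the level of the males. *Atp5c1* lies at chr2:9977643-10002137 on mm9, and 93.2% of its exonic windows are unique.

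*Atp5g1*, 1 of 3 genes for the c subunit of the proton-carrying ring, was at 842, 998 and 909 normalized counts in fWT and at 1422, 1413 and 1579 in fKO (log2 change 0.68 ± 0.07, adjusted p = 3.1e-07). Of its exonic windows 73.9% are unique. *Atp5f1*, *Atp5g3* and *Atp5b* were higher by 0.22, 0.21 and 0.17 on the log2 scale, and *Atp5j2* was lower by 0.33 ± 0.08. *Atp5b* ranged from 11582 to 12276 in fWT and from 13295 to 13367 in fKO. *Atp5a1* was at 12377 to 13092 in fWT and 11746 to 12345 in fKO, just short of overlap, and its log2 change of -0.07 ± 0.05 did not pass (adjusted p = 0.25).

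**Figure D2:**
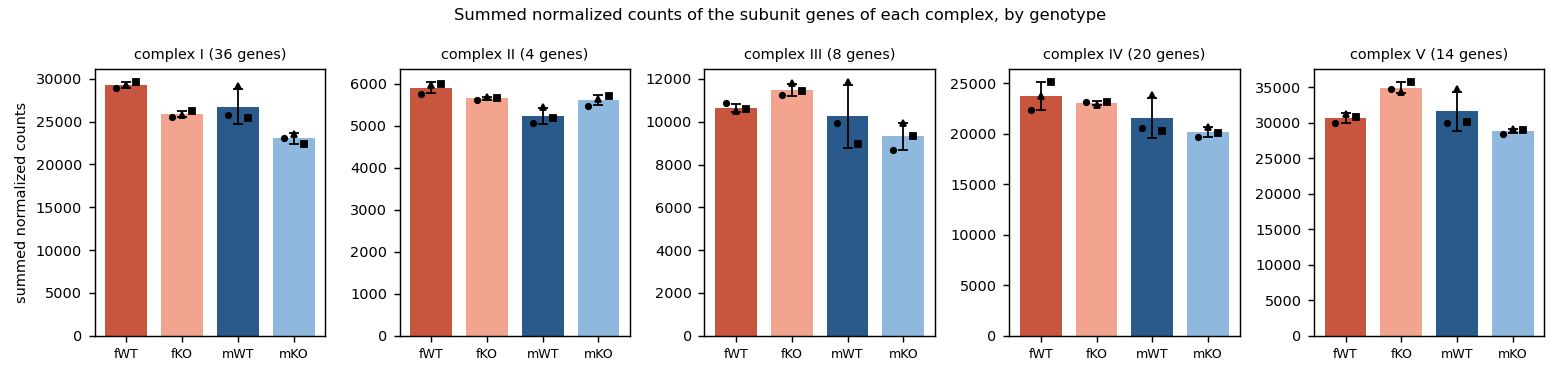
Bars are the mean over 3 libraries of the summed normalized counts of the subunit genes of each complex, with the SD as error bar and libraries A, B and C as circle, triangle and square (assembly factors, Atp5a1, Atp5s and Atp5sl left out). Complex I sums are lower in the knockouts of both sexes, and the complex V sum is higher in fKO than in fWT.

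Summed levels per library gave a coarse view of each complex. The 36 complex I subunit genes summed to 28909 to 29602 normalized counts in fWT and 25582 to 26237 in fKO, a ratio of means of 0.883. In males the sums were 25386 to 29112 in mWT and 22369 to 23595 in mKO, a ratio of 0.861, and neither pair of ranges overlapped. Over 14 complex V genes, without *Atp5a1*, the sums were 29982 to 31302 in fWT and 34299 to 35754 in fKO, a ratio of 1.14. In males they were 29951 to 34703 in mWT and 28473 to 29103 in mKO, a ratio of 0.912. The mean of *Atp5a1* was 12656 in fWT and 12028 in fKO, opposite in direction to the female sum. A sum gives most weight to abundant genes, and *Atp5b* went from 11868 to 13335 and *Atp5c1* from 1367 to 2992. By log2 change, 9 of the 17 complex V members were above 0 in females and 8 below. Over all 82 subunit genes, again without *Atp5a1*, the sums were 97828 to 102138 in fWT and 100337 to 102294 in fKO, with overlap. The male ratio of means was 0.911.

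The second comparison asked the same question in males. Of 89 members tested, 7 were lower in mKO and 0 higher (7.87%), against 8.56% of all 20474 genes tested, with 3.97% lower and 4.59% higher. At a mean of at least 100, 7.23% of members passed, against 12.1% of all genes. At an unadjusted p under 0.05, limma gave 22 members lower and 1 higher. These were 23 of 89 members, beside 5328 of all 20474 genes. Another fit, limma voom, called 4 members lower and 0 higher, and its share of all genes is not given here. The median log2 change of the members was -0.16, against -0.12 over all genes and 0.02 over genes with a mean of at least 100. *Atp5a1*, *Ndufs5* and *Cox6a2* were not tested. In mKO the reads of *Atp5a1* could not be assigned to libraries, and the authors' mean is 10749, against 11853 in mWT.

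The male calls depended on single libraries. Leaving out mWT C left 0 members called by limma, with 20 at an unadjusted p under 0.05. Leaving out mWT A, mKO B or mKO C left 1, leaving out mWT B gave 10, and leaving out mKO A gave 20, of which 17 were lower. No share of all genes is given here for the fits without 1 library. Without both mWT B and mKO A, which leaves 2 libraries per genotype, 36 of 89 members passed (40.4%), 26 lower and 10 higher, beside 51.5% of all genes (31.9% lower and 19.7% higher). In that fit 15 complex I genes were lower and 1 was higher. Its controls, mWT A and C, had reads on 3190 and 2919 of 4982 genes nearly silent in the other genotypes. How far such genes raise the share of all genes lower was not tested.

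*Cox7b2* had the largest change in males. It was at 31.9, 76.5 and 56.0 normalized counts in mWT A, B and C and at 10.6, 8.11 and 3.10 in mKO, without overlap. The log2 change was -2.80 ± 0.51 (adjusted p = 0.013), and the call was lost only without mWT C (adjusted p = 0.094). *Cox6b2* was at 305, 254 and 366 in mWT and at 196, 198 and 195 in mKO (log2 change -0.63 ± 0.16, adjusted p = 0.043).

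In complex V, *Atp5k*, a small membrane subunit, was at 232, 278 and 200 normalized counts in mWT and at 163, 125 and 120 in mKO (log2 change -0.80 ± 0.19, adjusted p = 0.036). The complex I assembly factor *Ndufaf6* was at 342, 299 and 323 in mWT and at 207, 216 and 227 in mKO (log2 change -0.57 ± 0.13, adjusted p = 0.033). *Ndufaf7*, another complex I assembly factor, was at 655 to 701 in mWT and 468 to 493 in mKO (log2 change -0.50 ± 0.11, adjusted p = 0.025). The groups did not overlap for these 3 genes.

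The remaining male calls were complex I accessory subunits. *Ndufa6* was at 778, 857 and 727 normalized counts in mWT and at 622, 532 and 559 in mKO (log2 change -0.46 ± 0.12, adjusted p = 0.047). *Ndufab1* was at 1431, 1658 and 1496 in mWT and at 1109, 1177 and 1146 in mKO (log2 change -0.42 ± 0.11, adjusted p = 0.045). No gene of complexes II and III passed in males over all 6 libraries with limma or limma voom, and 1 of the 12 had an unadjusted p under 0.05 with limma. Without mWT B and mKO A, 4 of them passed: *Sdhc*, higher by 0.39 (adjusted p = 0.0027), *Sdhd*, higher by 0.34 (adjusted p = 0.016), *Sdhb*, with a log2 change of -0.39 (adjusted p = 0.0064), and *Uqcrh*, with a log2 change of -0.33 (adjusted p = 0.0034). In mKO A, which that fit leaves out, *Sdhc* and *Sdhd* were at 825 and 628, below all mWT libraries (867 to 976 and 629 to 673). *Uqcrh* was at 1729 there, above all mWT libraries (1418 to 1674). Only *Sdhb*, at 1031 in mKO A and 1071 to 1192 in mWT, kept its direction in that library.

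**Figure D3:**
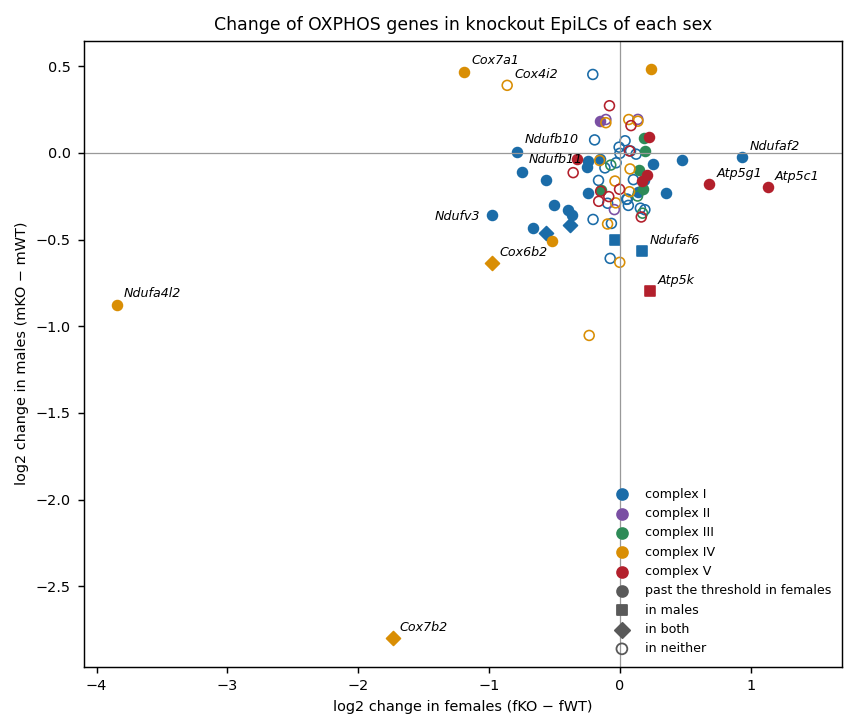
Each point is a member tested in both sexes, placed by its log2 change in females (horizontal axis) and in males (vertical axis) on the log2(normalized count + 1) scale, coloured by complex, with filled symbols for members past the threshold in females, in males or in both. Ndufa4l2 lies far to the left, Cox7b2 at the bottom, and Atp5c1, Ndufaf2 and Atp5g1 lie to the right with male changes between -0.20 and -0.02.

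There were 4 members that passed in both sexes, all lower in the knockouts: *Cox7b2*, *Cox6b2*, *Ndufa6* and *Ndufab1*. They were 10.5% of the female calls and 57.1% of the male calls among the 88 members tested in both, and over all genes the shares were 12.7% and 72%. With males fitted without mWT B and mKO A, 18 members passed in both sexes, of which 13 had the same direction. The overlap over all genes is not given here for that fit. In females, *Ndufa6* was at 675 to 739 normalized counts in fWT and 461 to 504 in fKO, and *Ndufab1* was at 1534 to 1731 and at 1198 to 1338. Across the 88 members the log2 changes of females and males had a Pearson's r of 0.369 and a Spearman's rho of 0.185, against 0.111 and 0.13 over 18226 genes. Genes share libraries and are not independent replicates.

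The third comparison tested whether the change differed between the sexes, as the interaction of sex and genotype over all 12 libraries. Of 91 members, 16 passed (17.6%), against 22.9% of all 20938 genes. The change was more negative in males for 11 and more positive for 5, and with scaling to library totals for 8 and 8. At a mean of at least 100, 18.1% of members passed, against 33.1% of all genes. Without mKO A, 29 members passed, and without both mWT B and mKO A 35 did. The change was more negative in males for 19 and more positive for 10 in the first of these fits, and for 18 and 17 in the second. The share of all genes in these fits is not given here, so the rise cannot be read as particular to the members.

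*Atp5c1* differed most, with a male minus female difference of -1.33 ± 0.11 on the log2 scale (adjusted p = 2.1e-06). Its normalized counts in males were 2988, 3114 and 2870 in mWT and 2604, 2545 and 2672 in mKO, so that mKO lay below mWT (adjusted p = 0.24, and 0.039 without mWT B and mKO A), while fKO was 2.19-fold above fWT. *Ndufa4l2* had a difference of 2.97 ± 0.37 (adjusted p = 8.2e-05). In males it was at 420, 177 and 400 in mWT and at 170, 155 and 181 in mKO, and mWT B, at 177, overlapped mKO. Its male log2 change was -0.88 (adjusted p = 0.11), and without mWT B and mKO A it was -1.28 (adjusted p = 0.00031).

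*Ndufaf2* differed by -0.96 ± 0.16 (adjusted p = 0.00081) and *Atp5g1* by -0.86 ± 0.16 (adjusted p = 0.0018). In males *Ndufaf2* was at 366 to 493 normalized counts in mWT and 388 to 407 in mKO, and *Atp5g1* was at 951 to 1312 and at 917 to 1023, so the ranges overlapped for both. *Ndufb10* differed by 0.79 ± 0.13 (adjusted p = 0.00086) and *Ndufb11* by 0.64 ± 0.12 (adjusted p = 0.0013). *Ndufb10* was at 495 to 611 in mWT and 518 to 548 in mKO, and *Ndufb11* was at 447 to 512 and at 420 to 452. *Ndufaf6* differed by -0.74 ± 0.15 (adjusted p = 0.0029), with 147 to 168 in fWT and 169 to 189 in fKO. *Ndufv3* differed by 0.62 ± 0.13 (adjusted p = 0.0046), and in males it was at 1056 to 1227 in mWT and 843 to 967 in mKO, below mWT without overlap but short of the threshold (adjusted p = 0.088), which it passed without mWT B and mKO A (adjusted p = 0.0080).

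**Figure D4:**
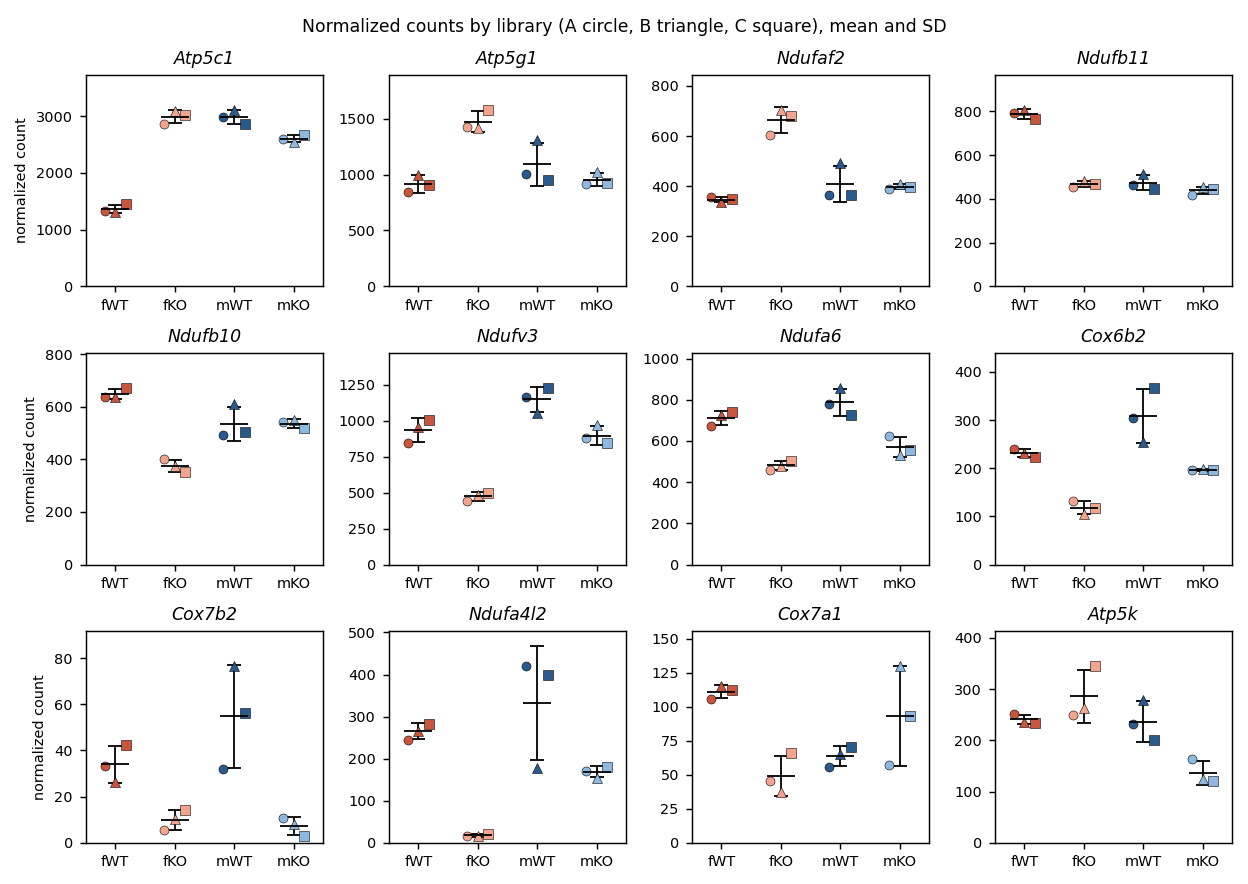
Normalized counts of 12 members in each library (A circle, B triangle, C square), with the mean as a horizontal bar and the SD as error bar (n = 3), by genotype. Atp5c1 is low and Ndufb11 high in fWT relative to the other 9 libraries, and Cox6b2, Cox7b2 and Ndufa6 are lower in the knockouts of both sexes.

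Control EpiLCs of both sexes were also compared with each other, which the size factors allowed because they matched one normalization over the 12 libraries. Of 91 members, 22 differed (24.2%), 17 higher and 5 lower in fWT, against 22.8% of all genes (10.4% higher and 12.3% lower). Among members with a mean of at least 100, 25.3% differed (19.3% higher and 6.02% lower). Over all genes of that level, 31.8% differed (18.3% higher and 13.5% lower). With scaling to library totals the split was 13 and 8, and with centring 13 and 7. The count fell to 13 without fWT A, 12 without fWT B and 14 without mWT A or C, and it rose to 36 without mWT B. Shares of all genes in these fits are not given here. The ESC lines of the sexes differ, so sex and line cannot be told apart here.

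Complex I, with 43 of the 91 members, gave 13 of these 22 calls, 10 of them higher in fWT. That was 30.2% called and 23.3% higher, beside 22.8% and 10.4% of all genes. Over all genes with a mean of at least 100, 31.8% were called and 18.3% higher. *Ndufb11* was higher by 0.73 ± 0.08 on the log2 scale (adjusted p = 4.0e-05) and *Ndufa1* by 0.50 ± 0.10 (adjusted p = 0.0027). The third X-linked member, *Cox7b*, was at 1022 to 1132 normalized counts in fWT and 939 to 1159 in mWT, with overlap (log2 difference 0.06 ± 0.15, adjusted p = 0.80). In the knockouts *Cox7b* was at 974 to 1159 in fKO and 531 to 863 in mKO. Its male log2 change of -0.63 (adjusted p = 0.063) passed without mWT B and mKO A (-0.73, adjusted p = 0.0012), as did that of *Ndufa1* (-0.34, adjusted p = 0.018). *Atp5c1* was lower in fWT by 1.13 ± 0.07 (adjusted p = 3.8e-07) and *Ndufaf6* by 1.02 ± 0.11 (adjusted p = 2.2e-05), and neither pair of groups overlapped.

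Isoform sets were described by their levels per kb, as the mean over 4 genotypes in normalized counts per kb. Common isoforms exceeded the tissue-restricted ones in each set. *Cox4i1* was at 6704 and *Cox4i2*, an isoform of lung, at 14.2. *Cox6a1* was at 3606 and *Cox6a2* at 0.569, while *Cox6b1* was at 2399 and *Cox6b2* at 388. In the Cox7a set, *Cox7a2* was at 1238, *Cox7a2l* at 1221 and *Cox7a1* at 218. *Cox8a* was at 3349, *Cox8c* at 15.5 and *Cox8b* near 0. *Ndufa4* was at 1993 and *Ndufa4l2* at 204. Among the genes for the c subunit, which share the mature protein, *Atp5g3* was at 4137, *Atp5g2* at 2978 and *Atp5g1* at 1603.

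Common isoforms and their tissue-restricted partners are set side by side for females, and the difference between partners was not tested. *Cox6b1* had a log2 change of -0.16 ± 0.06 (adjusted p = 0.054) beside -0.97 for *Cox6b2*, *Cox7a2* of 0.14 ± 0.09 (adjusted p = 0.21) beside -1.19 for *Cox7a1*, and *Ndufa4* of -0.04 ± 0.09 (adjusted p = 0.75) beside -3.85 for *Ndufa4l2*. *Cox4i2* was at 7.04 to 10.0 normalized counts in fWT, 3.03 to 6.27 in fKO, 6.98 to 15.8 in mWT and 3.25 to 36.5 in mKO, and it passed in neither sex. *Cox6a1* and *Cox8a* had log2 changes of -0.11 and -0.09 in females and 0.17 and -0.41 in males, none past the threshold. Without mWT B and mKO A both passed in males, *Cox6a1* with a log2 change of 0.42 (adjusted p = 0.0035) and *Cox8a* with -0.33 (adjusted p = 0.0049). *Atp5g2* had changes of -0.09 and -0.25, and *Atp5g3* a male change of -0.13, again short of it.

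Other genes of the pathway were taken from lists of known genes. Of 32 assembly factors outside the symbol rule, 12 were higher and 7 lower in fKO (53.4% of all genes passed), and 1 was lower in mKO (8.56% of all genes passed). Of 14 citric acid cycle genes, 3 were higher and 7 lower in fKO, and 1 was higher in mKO. The single male call of each of these lists was not made by limma voom. Of 14 regulators of mitochondrial biogenesis, 4 were higher and 4 lower in fKO and 0 passed in mKO with limma or limma voom, with 2 at an unadjusted p under 0.05 with limma. *Tfam*, which packages and transcribes mitochondrial DNA, was at 684 to 708 normalized counts in fWT and 881 to 967 in fKO (log2 change 0.42 ± 0.06, adjusted p = 1.5e-05), and at 477 to 730 in mWT and 663 to 773 in mKO (adjusted p = 0.23). *Nrf1*, the factor that binds the NRF1 letters, rose in fKO by 0.29 ± 0.06 (adjusted p = 0.00086). *Ppargc1a*, a coactivator of respiratory genes, was at or below 16.9 in all libraries.

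Cytochrome c carries electrons from complex III to complex IV. Its somatic gene *Cycs* was at 1323 to 1411 normalized counts in fWT and 1412 to 1668 in fKO, and *Cyc1*, the cytochrome c1 subunit of complex III, was at 2856 to 2968 and at 3056 to 3242, neither past the threshold (adjusted p = 0.067 and 0.059). The testis form *Cyct*, named after its values were seen, was at 64.4, 99.9 and 76.7 in fWT and at 1086, 1306 and 1218 in fKO, a log2 change of 3.91 ± 0.12 (adjusted p = 2.6e-13). In males it was at 54.8, 93.0 and 87.7 in mWT and at 988, 654 and 598 in mKO, a log2 change of 3.23 ± 0.25 (adjusted p = 0.00035). *Cyct* rose in both sexes, whereas the testis isoforms *Cox6b2* and *Cox7b2* fell in both.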

How the data were processed

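RNA-Seq was performed by the authors on rRNA-depleted total RNA, with strand-specific libraries and 50-bp single-end reads. Per the labels and methods, uniquely mapped reads with at most 1 mismatch were aligned to mm9 with TopHat2 2.1.0 and Bowtie2 2.2.6.0. The 2 deposited tables (female and male) hold the mean normalized count of each genotype, made by the authors with DESeq (a signal scaled by size factor, not raw reads). They also deposited a ratio (fold change), its log2 value and p-value columns of their own comparisons, which were not used here.

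Because each mean is a sum of 3 whole read counts divided by size factors, reads of single libraries were solved from the means. A single solution was found for 99.86 to 99.9% of genes, which hold 91.46 to 95.36% of normalized reads. On simulated data the solver was right for 100% of 18060 and 18346 genes. Libraries A, B and C cannot be matched to ESC lines or sample numbers. Size factors lay at 0.988 to 1.00 of one normalization over the 12 libraries.

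Differences were tested with limma 3.58.1 in R 4.3.3 on log2(normalized count + 1), over genes with reads in at least 2 libraries of the fit, with Benjamini-Hochberg adjustment over all genes tested and a threshold of 0.05. A fold change on this scale understates changes of low genes. The p-values rest on 1 spread per gene between ESC lines within genotypes, pooled over the genotypes of the fit. That spread is also drawn towards that of genes of similar level. In the interaction and control fits it is shared by all 4 genotypes, although male libraries were less alike than female ones. Females and males were fitted apart, and all 12 libraries together for the interaction and the controls. Exonic windows were counted on mm9, and promoters were taken from RefSeq (GRCm38.p6).

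The members and lists were chosen with earlier results of these data known. Named with values were the 2 most abundant subunits per complex, the 5 members that rose and the 5 that fell most in each sex, the 8 with the smallest adjusted p in the interaction, X-linked members, isoform sets, the Sdh genes and *Cycs*, *Cyc1*, *Tfam*, *Nrf1* and *Ppargc1a*. Other named genes were chosen after their values were seen. 1 member was counted with the others but is not reported here by name.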

Additional observations from a re-analysis of the deposited data

Results flagged for a closer look

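The response to the knockout differed between the sexes for 16 of 91 members by the interaction of sex and genotype (limma, adjusted p under 0.05). These were 17.6% of the members tested, against 22.9% of all 20938 genes. At a mean of at least 100, the shares were 18.1% and 33.1%. Differences are given here as the male minus the female log2 change. In complex I the difference was -0.96 for *Ndufaf2*, -0.74 for *Ndufaf6*, -0.58 for *Ndufa12*, -0.47 for *Ndufs3*, -0.47 for *Ndufaf7* and -0.37 for *Ndufs6*. It was 0.79 for *Ndufb10*, 0.64 for *Ndufb11* and 0.62 for *Ndufv3*. In complex IV it was 2.97 for *Ndufa4l2*, 1.66 for *Cox7a1* and -0.63 for *Cox7b*. In complex V it was -1.33 for *Atp5c1*, -1.03 for *Atp5k*, -0.86 for *Atp5g1* and -0.53 for *Atp5o*. The calls of *Ndufs3*, *Ndufs6*, *Cox7b* and *Atp5o* were lost on leaving out at least 1 of the 12 libraries, and the other 12 calls were kept each time. *Cox7a1* was at 55.8, 65.1 and 70.4 normalized counts in mWT and at 56.8, 130 and 93.1 in mKO, so the male groups overlapped. Its male log2 change was 0.47 (adjusted p = 0.34), and without mWT B and mKO A it was 0.80 (adjusted p = 0.025). Exons of *Atp5o* overlap those of 3 other genes over 44% of their length.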

How the results depend on the processing

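No direction of a called member was reversed under any alternative. No paired analysis was possible because the libraries worked out from the means carry no replicate number. Of the 38 female calls, 30 were kept with scaling to library totals, 34 with centring, 37 with limma voom, and 27 in all fits without 1 library. The number of complex V members higher in females was 3 with scaling to library totals, and without 1 library the female counts ranged from 30 to 36 in all. In males, 4 members were called, all lower, with limma voom in place of 7. Without 1 library, male calls ranged from 0 to 20 and male lower calls from 0 to 17. Without mWT B and mKO A, 36 were called, 26 of them lower, and all 7 calls were kept. In the interaction, counts ranged from 12 to 29 without 1 library and came to 35 without both. Between the control sexes they ranged from 12 to 36, and 12 of 22 calls were kept in every such fit. The cause of these shifts was not tested, and no share of all genes is given for the fits without 1 library. In a fit that leaves a genotype with fewer libraries, their spread is assumed to be like that of the other groups. Genes with a mean above 15000 could not be solved and were left out, and *Atp5a1* has no male test for want of a single solution in mKO.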
